A study of Mus musculus with 140 samples.

Results

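Renal arterioles and peritubular capillaries of 8 late sham mice were compared for their microRNAs (miRNAs), mouse by mouse, in 16 of the 140 small RNA libraries and 8 of the 28 mice of the series. The libraries were chosen by their labels alone: every arteriole and every peritubular capillary library of a mouse with a sham operation that was sampled at 24 h (4 mice) or 72 h (4 mice). All were male wild-type mice of strain C57BL6/OlaHsd, and no group carried an engineered allele. The vessels were cut from kidney by laser microdissection. A sham operation opens the abdomen without causing sepsis, so the mice carry the surgery and not the infection, and the sources used here do not give their age. The set also holds 4 healthy mice sampled at 0 h without an operation and 8 mice sampled 24 h or 72 h after cecal ligation and puncture (CLP), in which the gut is pierced so that its bacteria cause sepsis, and these were used to see the same contrast in other animals.

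Arterioles are small arteries with a coat of smooth muscle that sets the blood flow into the glomeruli. Peritubular capillaries are thin endothelial tubes that lie against the kidney tubules and take up what the tubules reabsorb. A miRNA is a short RNA that guides the silencing of messenger RNAs, mainly through its seed, bases 2 to 8 from the 5′ end, so miRNAs with the same seed share many targets. Several are known for a cell type: miR-143 and miR-145a for smooth muscle, miR-126a for endothelium, miR-192 and the miR-200 family for epithelium such as that of the tubules.

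The results turn on few sequences, which are shown 5′ to 3′ from RefSeq (GRCm38.p6) with the seed in capitals. Among miRNAs higher in arterioles, the first set shows that miR-27a and miR-27b, and miR-125a and miR-125b, share a seed.
miR-126a-3p: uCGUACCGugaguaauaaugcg
miR-140-3p: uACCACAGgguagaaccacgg
miR-23a-3p: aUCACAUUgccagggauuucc
miR-27a-3p: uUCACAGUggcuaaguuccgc
miR-27b-3p: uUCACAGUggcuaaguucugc
miR-24-3p: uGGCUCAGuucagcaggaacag
miR-125a-5p: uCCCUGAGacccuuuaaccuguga
miR-125b-5p: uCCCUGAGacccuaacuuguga
The second set holds miRNAs lower in arterioles and miR-215, whose difference did not pass. It shows the shared seed of miR-200b, miR-200c and miR-429 and the seed of miR-200a that differs from it. It also shows the shared seeds of miR-192 and miR-215, of miR-221 and miR-222 and of miR-34a and miR-34b.
miR-200b-3p: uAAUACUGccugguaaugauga
miR-200c-3p: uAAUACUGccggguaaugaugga
miR-429-3p: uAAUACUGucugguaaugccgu
miR-200a-3p: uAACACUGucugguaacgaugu
miR-192-5p: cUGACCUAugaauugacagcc
miR-215-5p: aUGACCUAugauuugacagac
miR-221-3p: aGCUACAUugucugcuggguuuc
miR-222-3p: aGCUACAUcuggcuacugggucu
miR-34a-5p: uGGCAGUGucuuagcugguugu
miR-34b-5p: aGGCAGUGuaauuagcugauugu
miR-203-3p: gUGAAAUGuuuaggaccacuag
miR-455-3p: gCAGUCCAcgggcauauacac
miR-6240: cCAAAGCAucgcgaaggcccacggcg
The third set holds pairs that differ at 1 base outside the seed and were distributed differently between the vessels. Here the only capital is the base that differs.
miR-100-5p: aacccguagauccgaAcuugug
miR-99a-5p: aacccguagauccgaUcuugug
miR-103-3p: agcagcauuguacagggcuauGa
miR-107-3p: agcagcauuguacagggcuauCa
miR-10a-5p: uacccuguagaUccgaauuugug
miR-10b-5p: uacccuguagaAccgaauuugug
miR-196a-5p: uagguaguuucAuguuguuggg
miR-196b-5p: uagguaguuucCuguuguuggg
miR-30a-5p: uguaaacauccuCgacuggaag
miR-30e-5p: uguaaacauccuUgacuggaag

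The arteriole libraries held 186303 to 569283 miRNA counts (median 220774.5) and the capillary libraries 27227 to 49456 (median 36485.5), so capillary values are the less precise ones. The 10 entries of the table with a # before their name are not named as miRNAs and were left out; on average they held 76.5% of the counts of an arteriole library and 96.3% of those of a capillary library. At least 1 count was seen for 314 to 356 miRNAs in an arteriole library and 236 to 277 in a capillary library. By counting error only, a count of 0 allows up to 5.27 to 16.1 counts per 1e+06 (CPM) in an arteriole library. In a capillary library it allows up to 60.7 to 110 CPM. These are plain CPM, before the scaling described next.

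Levels below are scaled CPM, that is CPM after the TMM scaling of edgeR, which lines up the bulk of miRNAs between libraries. In arterioles miR-143 and miR-145a took about as many counts as all other miRNAs together. The TMM factors were 0.485 to 0.813 in arterioles and 1.43 to 1.72 in capillaries, so a scaled CPM is not a share of the library. A log2 difference is arterioles minus capillaries of the same mouse, fitted over 8 mice, with its standard error, and each adjusted p is from edgeR's quasi-likelihood F test with Benjamini-Hochberg adjustment over all miRNAs tested. Plain shares of miRNA counts are given where the scaling decides.

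Of the 1474 miRNAs that the files list, 602 had a count in these libraries, and those that passed a filter on low counts were tested. At an adjusted p under 0.05, 56 of the tested were higher in arterioles (28.7%), 39 were lower (20%) and 100 were not called. The groups did not overlap for 49 of the tested (25.1%), 29 higher and 20 lower. All 8 mice had the higher value in arterioles for 48 of the 56, and all 8 had the lower value there for 28 of the 39. The log2 difference was above 2 for 24 of those higher and below -2 for 22 of those lower. The 56 made up 80.7% of arteriole counts and 33.4% of capillary counts, and the 39 made up 6.53% and 34.7%. The median over all tested miRNAs was 0.12. Counts of called list members below are to be read beside the 28.7% higher and 20% lower of all tested. They were not tested against these shares.

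The split depends on the scaling. With plain miRNA totals the median log2 difference of all tested moved to -1.14, with 18 higher and 101 lower. With the # entries as the yardstick it moved to 1.85, with 140 higher and 10 lower. Over 5 scalings, 18 of the 56 and 10 of the 39 were called the same way in all, and 13 and 16 changed sign in at least 1. The miRNAs called in all 5 are marked so below, and a difference is to be read relative to the median of its scaling.

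**Figure D1:**
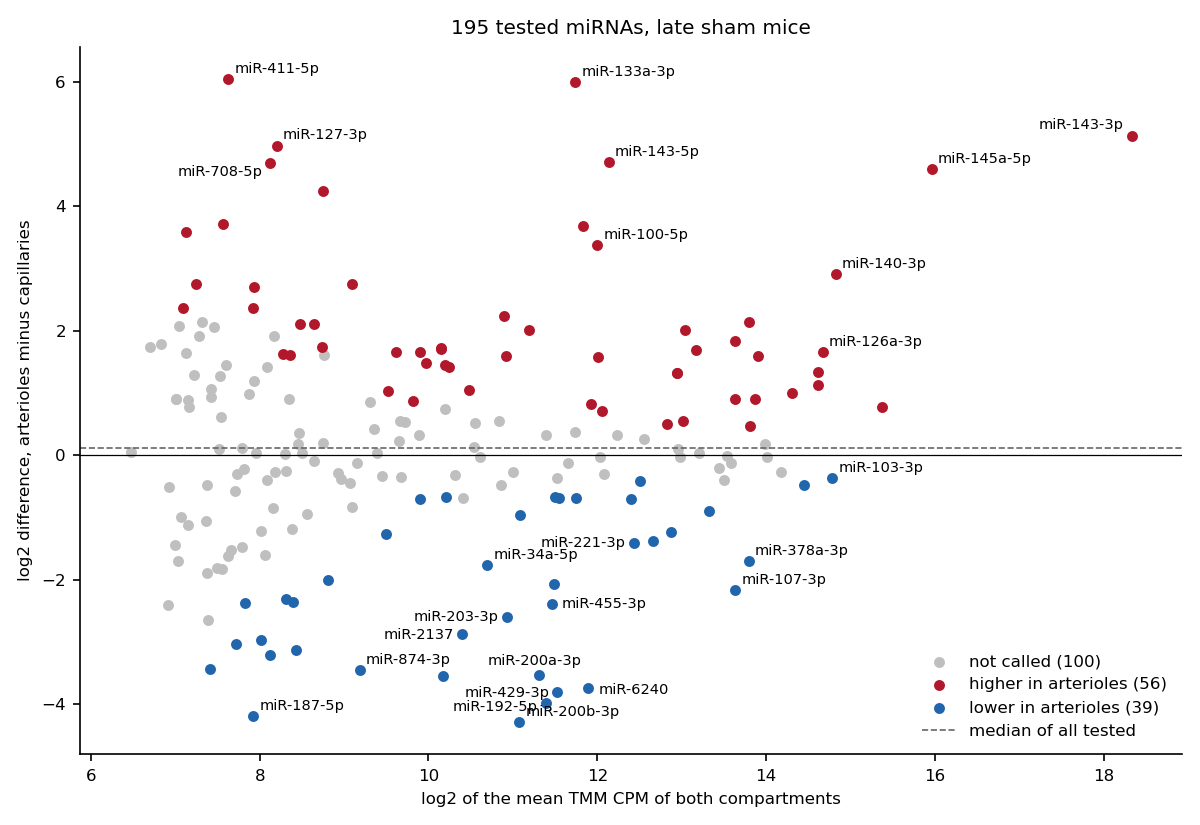
Each point is 1 tested miRNA; the x axis is the log2 of its mean scaled CPM over both compartments and the y axis its log2 difference, arterioles minus capillaries. The 56 higher miRNAs include miR-143-3p at 5.14 at the highest level of all, the 39 lower ones include miR-200b-3p at -4.29, and the dashed line is the median of 0.12.

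The smooth muscle miRNAs set the arterioles apart: all 4 tested of the 4 listed (both arms of miR-143 and of miR-145a) were higher there, in all 5 scalings, with a median log2 difference of 4.66. miR-143-3p and miR-145a-5p are the main products of hairpins that keep smooth muscle cells in their contractile state. miR-143-3p ranged from 405139.8 to 990557 (median 636819) scaled CPM in arterioles and from 10838 to 23444 (median 17460.0) in capillaries. Every arteriole library thus lay far above every capillary library. Its log2 difference was 5.14 ± 0.22 (adjusted p = 1.34e-11), and it alone made up 40.2% ± 6.02 (SD, n = 8) of arteriole counts and 2.75% ± 0.579 of capillary counts. miR-145a-5p ranged from 84731 to 187090.0 (median 102197) and from 3205 to 6271 (median 5054) scaled CPM, without overlap, a log2 difference of 4.60 ± 0.19 (adjusted p = 1.34e-11). The minor arms followed, miR-143-5p with 4.71 ± 0.30 and miR-145a-3p with 3.68 ± 0.26. As a plain share the list took 41.4% to 58.0% of arteriole counts and 2.54% to 4.40% of capillary counts. In bulk samples like these, fewer cells of a type and less RNA per cell cannot be told apart.

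miR-133a-3p, a miRNA of striated muscle that arterial smooth muscle is also known to hold, had a log2 difference of 6.00 ± 0.44 (adjusted p = 9.01e-09), called in all 5 scalings. It ranged from 3983 to 8571 (median 6987) scaled CPM in arterioles and from 0 to 415 (median 75.1) in capillaries, where 2 of the 8 libraries had no count. It was the only tested member of the 12 listed for striated muscle. With capillary libraries at 0 it needed arteriole libraries to pass the filter on low counts, which favours a difference toward arterioles. Its call therefore supports nothing about the list.

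**Figure D2:**
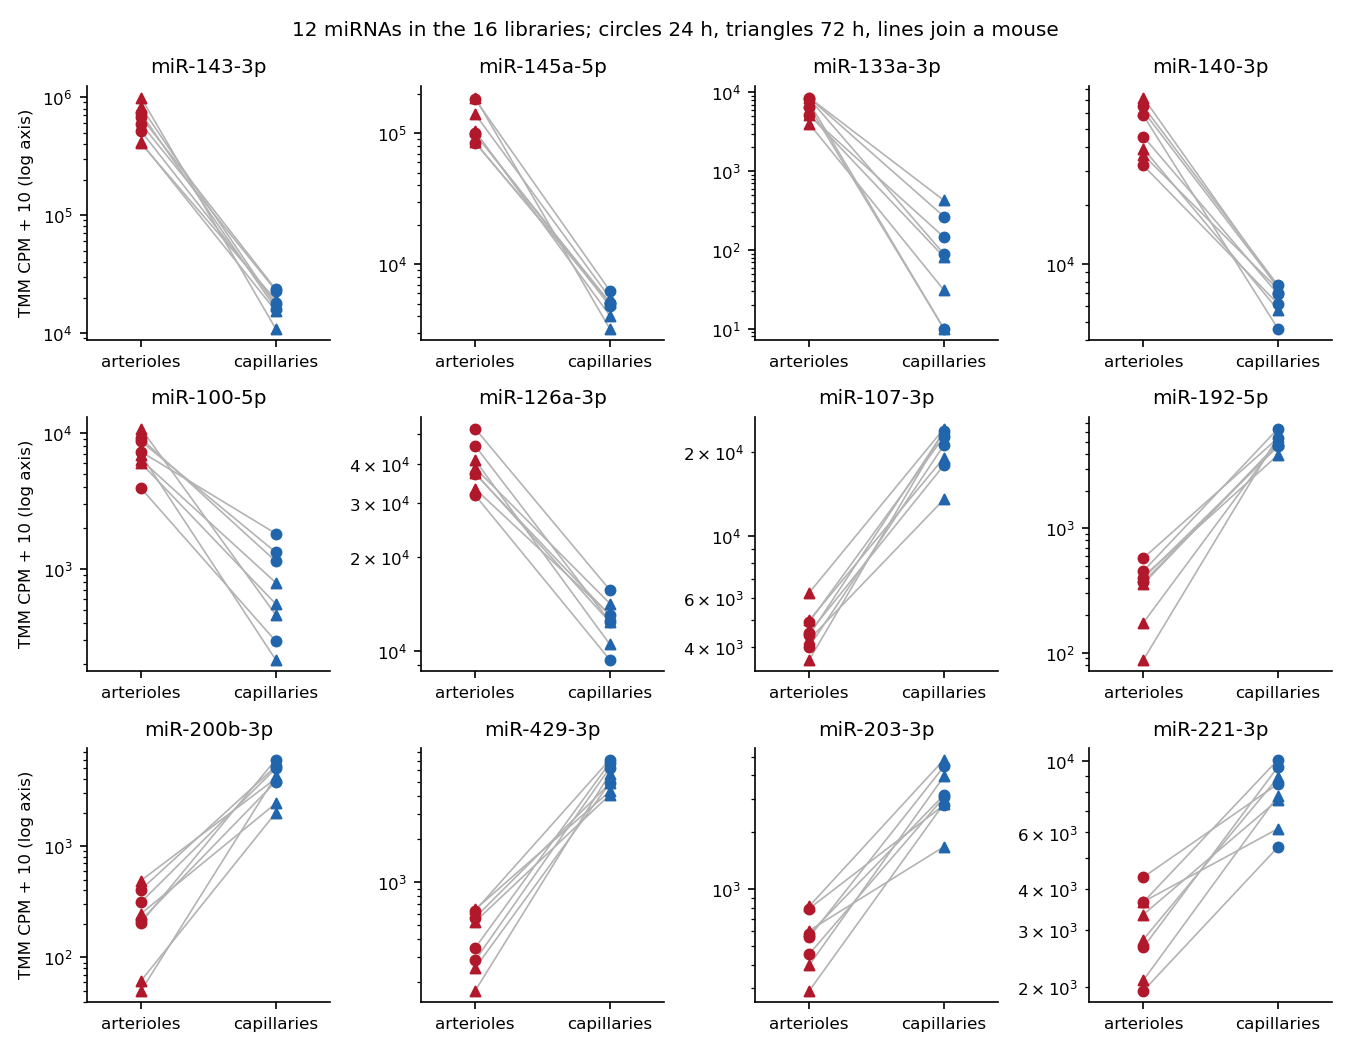
Scaled CPM plus 10 on a log axis for 12 miRNAs in arterioles (red) and peritubular capillaries (blue); circles are 24 h and triangles 72 h mice, and each line joins the libraries of 1 mouse. The first 6 panels fall and the last 6 rise from arterioles to capillaries in all 8 mice, and no panel has overlapping groups.

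miR-140, best known from cartilage, was among the 5 most abundant miRNAs of arterioles. miR-140-3p, which is made from the Wwp2 gene, ranged from 32228 to 72394 (median 52018) scaled CPM in arterioles and from 4580.1 to 7690.4 (median 7139) in capillaries, with no overlap. Its log2 difference was 2.91 ± 0.16 (adjusted p = 3.35e-10), called in all 5 scalings, and miR-140-5p, at a far lower level, had 1.66 ± 0.35 (adjusted p = 0.000889).

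Of the 10 tested endothelial miRNAs of 19 listed, 8 were higher in arterioles and 2 were lower, with a median log2 difference of 1.67. miR-126a, which lies in the endothelial gene Egfl7 and supports vessel integrity, was on the arteriole side. miR-126a-3p ranged from 31713 to 52019 (median 38106) scaled CPM in arterioles and from 9324 to 15677 (median 12685) in capillaries. The groups did not overlap, and the log2 difference was 1.66 ± 0.12 (adjusted p = 6.16e-09), against 2.02 ± 0.14 for miR-126a-5p. Both arms were called in all 5 scalings, but with plain totals the difference was only 0.40 for miR-126a-3p. Together they took 2.49% to 4.67% of arteriole counts and 1.79% to 2.90% of capillary counts, ranges that overlap.

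The hairpins of miR-23a, miR-27a and miR-24, which act in vessel growth and inflammation, lie together at chr8:84208518-84208921 on the plus strand. All 4 of their tested products were higher in arterioles, and of these miR-24-2-5p was not called with plain totals. miR-23a-3p ranged from 18923 to 32487 (median 21677) scaled CPM in arterioles and from 3542 to 6857 (median 5133) in capillaries, a log2 difference of 2.13 ± 0.17 (adjusted p = 2.53e-08). For miR-27a-3p the ranges were 2229 to 4394 (median 2898) and 416 to 1045 (median 643), with a difference of 2.24 ± 0.23. For miR-24-3p, which is also made from a copy on chromosome 13, they were 9633 to 17873 (median 14571) and 2932 to 5429 (median 4469), with 1.68 ± 0.18. None of these groups overlapped. miR-27b-3p from the chromosome 13 copy of the cluster had 1.60 ± 0.14 and miR-23b-3p 1.34 ± 0.13; with plain totals miR-23b-3p was at 0.08 and no longer called.

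The 2 endothelial miRNAs on the capillary side share a seed and lie together at chrX:19146294-19146971 on the minus strand. miR-221-3p and miR-222-3p are known to restrain endothelial growth through the receptor Kit. miR-221-3p ranged from 1931 to 4352 (median 3059) scaled CPM in arterioles and from 5401 to 10076 (median 8134) in capillaries, a log2 difference of -1.41 ± 0.16 (adjusted p = 1.6e-06), which turned to 0.35 (adjusted p = 0.13) with the # entries as the yardstick. miR-222-3p ranged from 587 to 1468 (median 1022) and from 2814 to 7769 (median 4447), a difference of -2.07 ± 0.24 (adjusted p = 1.8e-06). With the # entries the difference of miR-222-3p was only -0.32 and no longer called. All capillary libraries lay above all arteriole libraries for both.

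The miRNAs named for epithelium were on the capillary side. All 5 tested of the 10 listed for the miR-200 family, which keeps epithelial cells epithelial by silencing Zeb1 and Zeb2, were lower in arterioles, with a median log2 difference of -3.56; with the # entries as the yardstick 4 of the 5 were called, in the same direction. miR-200b-3p ranged from 40.1 to 481 (median 221) scaled CPM in arterioles and from 1982 to 5985 (median 4143) in capillaries, a log2 difference of -4.29 ± 0.35 (adjusted p = 3.11e-08). miR-429-3p ranged from 164 to 633 (median 427) and from 4044 to 7128 (median 5288), a difference of -3.82 ± 0.28 (adjusted p = 8.24e-09). miR-200a-3p had -3.54 ± 0.41 and miR-200c-3p -3.56 ± 0.49. The groups overlapped for none of these 4. In arterioles miR-200b-3p, miR-200b-5p and miR-200c-3p did not reach the filter's minimum of 84.8 CPM in every library. They needed capillary libraries to pass, which favours a difference toward capillaries, so the count of 5 lower supports nothing by itself. The hairpins of miR-200a, miR-200b and miR-429 lie together at chr4:156053905-156055750 on the minus strand, within the gene Ttll10, while miR-200c lies on chromosome 6.

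miR-192-5p, a miRNA abundant in the renal cortex, ranged from 77.4 to 566 (median 373) scaled CPM in arterioles and from 3899 to 6350.1 (median 4952) in capillaries. Each capillary library was above each arteriole library, and the log2 difference was -3.98 ± 0.29 (adjusted p = 8.86e-09), called in all 5 scalings. Its lowest arteriole value was under the filter's 84.8 CPM, so it needed capillary libraries to pass, which favours this direction. Its seed mate miR-215-5p was low in both, 0 to 249 (median 51) and 21 to 343 (median 197) scaled CPM, and its difference of -1.70 ± 1.05 did not pass (adjusted p = 0.184). These 2 were the tested members of the 7 in the tubular list. miR-204-5p, also known for the renal tubule, had -1.89 ± 1.07 (adjusted p = 0.15). miR-203-3p, best known from skin epithelium, ranged from 281 to 804 (median 559) and from 1671 to 4841 (median 3099) without overlap, a difference of -2.60 ± 0.24 (adjusted p = 1.45e-07) called in all 5 scalings.

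The labels were checked against these markers. The arteriole libraries carried the smooth muscle list and little epithelial signal: the tubular list took 0.00459% to 0.0472% of their counts and the miR-200 family 0.0234% to 0.212%. The capillary libraries carried the endothelial list at 8.61% to 10.4% of counts, against 8.47% to 12.03% in arterioles, together with the tubular list at 0.785% to 1.12% and the miR-200 family at 2.05% to 3.40%. Thus the plain endothelial share did not set the capillaries apart, whereas the plain epithelial shares did not overlap between the vessels. The endothelial overlap depends on the scaling. In scaled CPM that list ranged from 134415 to 199921 in arterioles and from 50570 to 68189 in capillaries, without overlap. The part of tubular cells in the capillary values was not tested. Erythroid miRNAs took 1.16% to 3.21% in arterioles and 1.44% to 3.72% in capillaries, and leukocyte miRNAs 0.0611% to 0.246% and 0.0619% to 0.327%. The lists for hepatocytes and for the miR-183 cluster had no tested member.

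**Figure D3:**
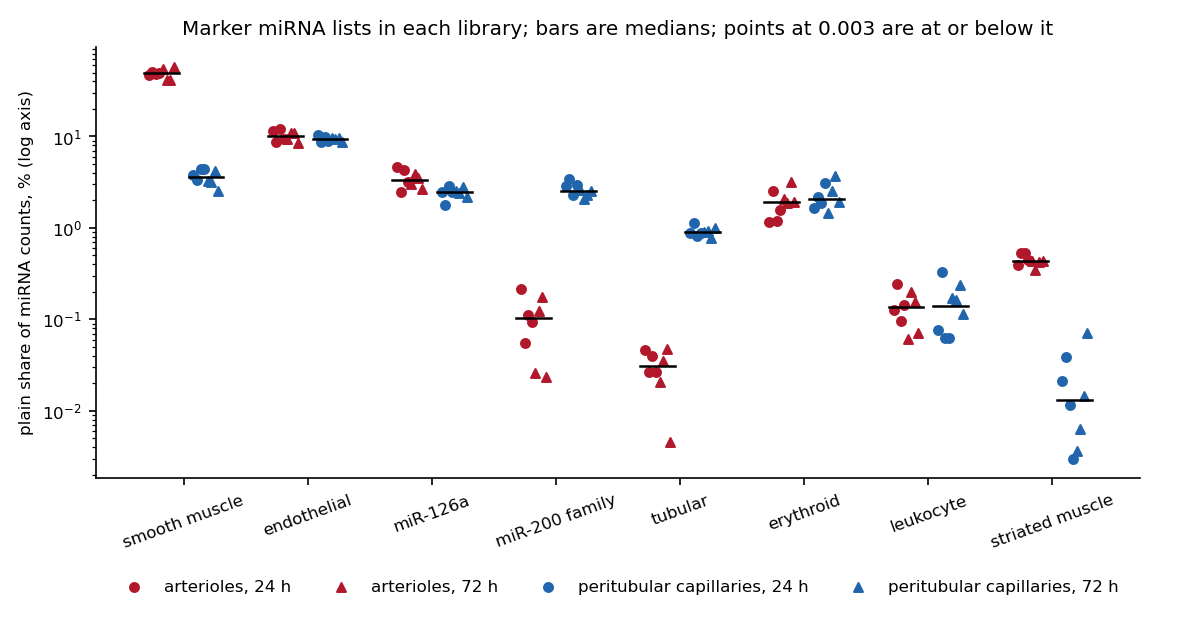
The plain share of miRNA counts in percent, on a log axis, taken by 7 marker lists and by miR-126a in each of the 8 arteriole (red) and 8 capillary (blue) libraries; bars are medians. The smooth muscle, striated muscle, miR-200 and tubular shares do not overlap between the vessels, and the endothelial, miR-126a, erythroid and leukocyte shares do.

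The miR-99/100 and miR-125 families, which are often made from shared transcripts with let-7, were higher in arterioles for 5 of the 8 tested members and lower for none, with a median log2 difference of 1.42; with plain totals miR-125a-5p and miR-99a-5p changed sign and 2 of the 8 were called. miR-100-5p, which restrains mTOR, ranged from 3914 to 10748 (median 7085) scaled CPM in arterioles and from 206 to 1814 (median 665) in capillaries, a difference of 3.37 ± 0.29 (adjusted p = 5.2e-08). miR-125b-5p ranged from 11169 to 30783 (median 19097) and from 3868 to 8613 (median 5239.5), a difference of 1.83 ± 0.17 (adjusted p = 1.51e-07). Neither overlapped, and both were called in all 5 scalings. miR-99b-5p had 2.01 ± 0.31, miR-125a-5p 1.00 ± 0.13 and miR-99a-5p 0.91 ± 0.13.

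miR-199a, miR-199b and miR-214 are known from mesenchymal cells such as fibroblasts and pericytes. Of 4 tested members, 3 were higher in arterioles, with a median of 1.38, though all 4 groups overlapped and none was called with plain totals, under which miR-199a-5p changed sign. miR-199a-3p had 1.72 ± 0.34 (adjusted p = 0.000573). miR-199b-3p has the same sequence and near-equal counts, so the pair cannot be told apart. miR-214-3p had 0.55 ± 0.30 (adjusted p = 0.141). The list for the imprinted Dlk1-Dio3 region, with 90 miRNAs in the table, had 2 tested, both higher and called in all 5 scalings: miR-127-3p at 4.98 ± 0.87 and miR-411-5p at 6.05 ± 1.23. miR-127-3p ranged from 205 to 861 (median 570.2) scaled CPM in arterioles and from 0 to 146 (median 0) in capillaries, and its capillary counts were 0 in 5 of 8 libraries. miR-411-5p had 7 counts in 1 capillary library and none in the other 7. Both thus passed the filter on low counts mainly through arteriole libraries, which favours a difference toward arterioles. That the 2 tested were both higher therefore supports nothing about the region. miR-1247-5p, which is not in that list and was added after its values were seen, lies in an exon of Dio3os at the end of the region. It was lower in arterioles, ranging from 0 to 379.6 (median 169.6) scaled CPM in arterioles and from 109 to 1299 (median 604) in capillaries. The groups overlapped, and the difference was -2.01 ± 0.78 (adjusted p = 0.0442), called in 4 of 5 scalings. With the # entries it was only -0.26.

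miR-497a-5p and miR-195a-5p share the miR-15/16 seed, which targets cell cycle genes, and lie together at chr11:70234717-70235135 on the plus strand. Both were higher in arterioles, miR-497a-5p at 1.58 ± 0.20 (adjusted p = 4.84e-06) and miR-195a-5p at 1.75 ± 0.43 (adjusted p = 0.00321), and neither was called with plain totals. miR-497a-5p ranged from 4659 to 8289 (median 6319) scaled CPM in arterioles and from 1257 to 2902 (median 1953) in capillaries, with no overlap. The other 3 tested miRNAs with this seed did not pass, with miR-16-5p at -0.27 ± 0.12, miR-15a-5p at -0.48 ± 0.20 and miR-322-5p at -0.38 ± 0.53.

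The erythroid list had 3 of 6 tested members higher and none lower, but none was higher with plain totals, and miR-451a, which red cells need to mature, had 0.26 ± 0.24 (adjusted p = 0.373). miR-486a-5p had 1.31 ± 0.21; it and miR-486b-5p had near-equal counts and cannot be told apart. Of 3 tested leukocyte miRNAs, miR-150-5p of lymphocytes had 1.41 ± 0.37 (adjusted p = 0.00505), and miR-142a-3p and miR-223-3p did not pass. Neither inflammation miRNA passed: miR-146a-5p, a brake on innate immune signalling, had -0.04 ± 0.27 and miR-132-3p -0.34 ± 0.32. The hypoxia miRNA miR-210-3p had 2.10 ± 0.76 (adjusted p = 0.0321), with a capillary median of 206 scaled CPM, and was not called with plain totals.

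Among 7 tested injury and fibrosis miRNAs, 4 were lower in arterioles and 1 was higher; with the # entries as the yardstick none was lower. miR-34a-5p, which p53 induces, ranged from 372 to 896 (median 789) scaled CPM in arterioles and from 1862 to 3173 (median 2756) in capillaries, a difference of -1.77 ± 0.23 (adjusted p = 7.36e-06). miR-34b-5p had -3.03 ± 1.21 and miR-34c-5p -2.38 ± 0.82. miR-21a-5p, which rises in injured kidney and is made from Vmp1, ranged from 17266 to 19407 (median 18664) and from 22424 to 29762 (median 26794). Those groups did not overlap although the difference was small, -0.48 ± 0.11 (adjusted p = 0.00228), and it changed sign with the # entries. miR-29c-3p, which silences collagen genes, had 0.50 ± 0.17 and changed sign with plain totals, and miR-29a-3p -0.12 ± 0.15.

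miR-103-3p and miR-107-3p lie in introns of the Pank genes, which encode pantothenate kinases of coenzyme A synthesis: miR-107 in Pank1, miR-103 in Pank2 and Pank3. miR-107-3p ranged from 3586 to 6255 (median 4443) scaled CPM in arterioles and from 13554 to 24351 (median 22026) in capillaries, without overlap. Its log2 difference was -2.17 ± 0.14 (adjusted p = 3.25e-09), and with the # entries -0.42 (adjusted p = 0.0545). miR-103-3p ranged from 19812 to 29600.3 (median 23802) and from 23538 to 38519.7 (median 31758), groups that overlap, a difference of -0.38 ± 0.12 (adjusted p = 0.0154) that changed sign with the # entries. miR-378a, which lies in Ppargc1b, a regulator of mitochondrial genes, was on the same side: miR-378a-3p ranged from 4784 to 8429 (median 6943) and from 14854 to 25801 (median 22070.3), a difference of -1.70 ± 0.15 (adjusted p = 9.92e-08) that became 0.053 with the # entries, and miR-378a-5p had -2.32 ± 0.60. miR-455-3p, known from cartilage, ranged from 598 to 1474 (median 849) and from 3706 to 6000.0 (median 4800.4) without overlap, a difference of -2.39 ± 0.20 (adjusted p = 3.63e-08) called in all 5 scalings.

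The miR-17-92 and miR-106b-25 clusters, which drive proliferation, had 3 of 8 tested members lower, beside 20% of all tested, and none higher. The 3 were miR-92a-3p at -0.89 ± 0.17, miR-93-5p at -0.71 ± 0.13 and miR-19b-3p at -0.70 ± 0.17. All 3 changed sign with the # entries. Of 8 tested miR-30 miRNAs, which are abundant in kidney, miR-30a-5p was higher at 0.47 ± 0.13 and miR-30e-5p lower at -0.67 ± 0.26; the list's median was -0.13, and all 8 were lower with plain totals and higher with the # entries. Of all tested miRNAs 28.7% were higher and 20% lower, and the let-7 family did not exceed these shares. Of its 13 tested miRNAs, which mark differentiated cells, let-7i-5p, let-7e-5p and let-7j were higher and let-7g-5p was lower, at 1.14, 1.67, 0.83 and -0.69. let-7e-5p kept its sign in all 5 scalings and the others did not. miR-26a-5p, one of the 5 most abundant in both vessels, had 0.78 ± 0.12 (adjusted p = 2.97e-05), yet as a plain share it was 3.47% ± 0.494 in arterioles and 4.81% ± 0.316 in capillaries (SD, n = 8).

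Of 9 tested miRNAs with little known function, 4 were lower in arterioles and 1 higher. miR-6240 ranged from 361 to 637 (median 559.7) scaled CPM in arterioles and from 3942 to 9507 (median 7368) in capillaries. No arteriole library came near the lowest capillary library, and the difference was -3.74 ± 0.18 (adjusted p = 7.7e-11), called in all 5 scalings. miR-2137, in an intron of Zfp185, ranged from 141 to 629 (median 371) and from 1312 to 4106 (median 2228), a difference of -2.88 ± 0.28 (adjusted p = 2.52e-07), also called in all 5. miR-5099 had -1.39 ± 0.18 and turned to 0.36 with the # entries. Whether these entries count miRNAs or pieces of longer RNAs was not tested.

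The remaining lists had few calls. Both tested miRNAs of the miR-148 and miR-152 family were higher, miR-148a-3p at 2.75 ± 0.65 and miR-152-3p at 1.45 ± 0.26, though not with plain totals. Of 7 tested miR-10 and miR-196 miRNAs from the Hox gene clusters, which pattern the body axis, 3 were higher: miR-10b-5p at 1.59 ± 0.25, miR-196a-5p at 0.90 ± 0.15 and miR-615-3p at 1.03 ± 0.33. With plain totals miR-196a-5p and miR-615-3p changed sign. miR-193b-3p was higher at 3.58 ± 1.14 among the 5 tested of miR-193 and miR-365. miR-181b-5p was lower at -0.42 ± 0.14 of 5 miR-181 miRNAs and changed sign with the # entries, as did miR-423-3p and miR-423-5p, at -0.96 and -0.67. miR-9-5p of neurons was lower at -2.37 ± 0.50, and the 3 tested miRNAs of the glomerular X-linked cluster did not pass.

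Pairs of miRNAs that differ at 1 base offer a view that no scaling of the library can move, since their ratio is taken within a library. There were 13 such pairs of equal length among tested miRNAs, and the ratio was compared between the vessels of the same mouse by an exact two-sided sign-flip permutation test, in which 8 mice can reach p = 0.00781 at the smallest. After Benjamini-Hochberg adjustment over the 13 pairs, 12 were under 0.05. Of all tested miRNAs 28.7% were higher and 20% lower, so ratios of other pairs can differ too. Their share was not determined, and the count of 12 is not a trait of 1-base pairs. The pairs are also not separate, since let-7a-5p and let-7c-5p each belong to more than 1. Positions count from 1 at the 5′ end, with the base of the first-named miRNA first. miR-100-5p and miR-99a-5p (A16U) had a median log2 ratio of -1.16 in arterioles and -3.61 in capillaries, and the ratio was higher in arterioles in 8 of 8 mice by a mean of 2.52 ± 1.18 (SD, n = 8 mice, exact adjusted p = 0.0145). For miR-103-3p and miR-107-3p (G22C) the medians were 2.44 and 0.65, with a mean difference of 1.80 ± 0.37, positive in 8 of 8. miR-107-3p thus came close to miR-103-3p in capillaries and was far below it in arterioles. miR-196a-5p over miR-196b-5p (A12C) differed by 1.11 ± 0.47, and miR-30a-5p over miR-30e-5p (C13U) by 1.14 ± 0.63, both positive in 8 of 8. miR-10a-5p over miR-10b-5p (U12A) went the other way, -1.28 ± 0.42, negative in 8 of 8. The sources used here do not say how a read that matches both members was counted, and its part in these ratios was not tested.

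**Figure D4:**
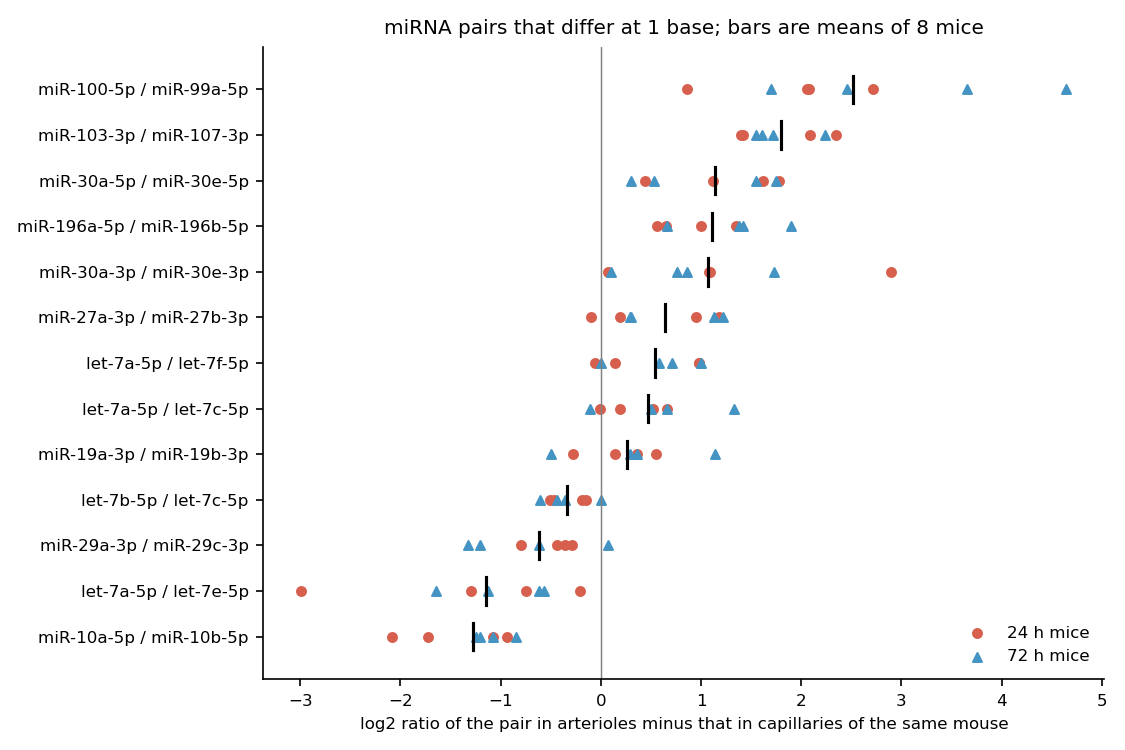
For 13 pairs of miRNAs that differ at 1 base, the log2 ratio of the pair in arterioles minus that in capillaries of the same mouse (x axis); circles are 24 h and triangles 72 h mice, and bars are means of 8 mice. All mice lie above 0 for miR-100-5p over miR-99a-5p and for miR-103-3p over miR-107-3p, and all lie below 0 for miR-10a-5p over miR-10b-5p.

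What the called miRNAs shared was followed further by seed, hairpin and place. Of the tested miRNAs, 163 had a RefSeq sequence, and 27 seeds were held by 2 or more tested miRNAs. In 12 of these families 2 or more members were called in 1 direction. Examples are the AAUACUG seed of miR-200b, miR-200c and miR-429 (3 lower) and the ACCCGUA seed of miR-99a, miR-99b and miR-100 (3 higher). The 12 include miR-199a-3p and miR-199b-3p, which have the same sequence, so their agreement shows nothing. In 3 families calls went both ways: let-7, the miR-30 seed GUAAACA, and CAAAGCA of miR-6240 and miR-330-3p. Both arms were tested for 25 hairpins and had the same sign in 23, and in all 10 hairpins with both arms called the signs agreed. Of 22 groups of hairpins within 10000 bases of each other, 9 had 2 or more products called in 1 direction and none had calls in both. These groups are not separate, since miR-92a-3p, miR-19b-3p and miR-24-3p each count in 2 of them. In the group of miR-199a and miR-214 the 2 calls are the arms of 1 hairpin. Over all tested miRNAs 28.7% were higher and 20% lower, and the counts of families and groups were not tested against these shares. GC content and the log2 difference had a Pearson r of 0.055 across the tested miRNAs with a sequence, which are not independent replicates.

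No dependence of the contrast on the time after surgery was detected. In the 72 h minus 24 h difference of the contrast, 0 of 245 miRNAs passed (0%) by edgeR, with 9 at an unadjusted p under 0.05, and 0 by DESeq2. For miR-143-3p the contrast was 4.99 at 24 h and 5.31 at 72 h, and for miR-192-5p -3.57 and -4.45. The smallest p went to miR-150-5p, at 2.30 and 0.60, with a difference of -1.79 ± 0.59 (adjusted p = 0.898).

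The 4 healthy mice, with capillary libraries of 4215 to 15246 miRNA counts, gave the contrast in animals with no operation. Of 97 tested miRNAs, 26 were higher in arterioles (26.8%) and 17 lower (17.5%). Of the 56 higher in late sham mice 39 were tested there, 38 had the same sign and 25 were called. Of the 39 lower, 27 were tested, 25 had the same sign and 16 were called, and no call was in the opposite direction. miR-143-3p had 4.67 ± 0.15, miR-126a-3p 1.77 ± 0.20, miR-200b-3p -4.18 ± 0.81 and miR-107-3p -2.46 ± 0.24. In the test of the difference between late sham and healthy mice, 1 of 213 passed (0.469%), with 18 at an unadjusted p under 0.05. That was miR-6240, which ranged from 589.9 to 3228 (median 672) scaled CPM in healthy arterioles and from 16052 to 78239 (median 52663) in healthy capillaries, a contrast of -5.43 ± 0.38. The contrast was thus smaller in size in late sham mice by 1.62 ± 0.36 (adjusted p = 0.0409). The call was lost when any 1 of the 8 sham mice, or healthy mouse 1 or 3, was left out. The healthy libraries are also shallower and have another style of column name, which cannot be told apart from the group.

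In the 8 late CLP mice, 50 of 184 tested miRNAs were higher in arterioles (27.2%) and 37 lower (20.1%). Of the 56 higher in late sham mice 54 were tested, all with the same sign, and 43 were called. Of the 39 lower, 34 were tested, 31 had the same sign and 26 were called. miR-143-3p had 4.83 ± 0.14, miR-126a-3p 1.48 ± 0.16, miR-23a-3p 1.48 ± 0.17, miR-192-5p -4.39 ± 0.30 and miR-34a-5p -2.01 ± 0.36. In the test of CLP against sham, 0 of 282 passed (0%) by edgeR, with 17 at an unadjusted p under 0.05, and 2 by DESeq2. The smallest p went to miR-5119, at -1.24 in sham and -3.38 in CLP mice, with a difference of -2.09 ± 0.65 (adjusted p = 0.584).

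**Figure D5:**
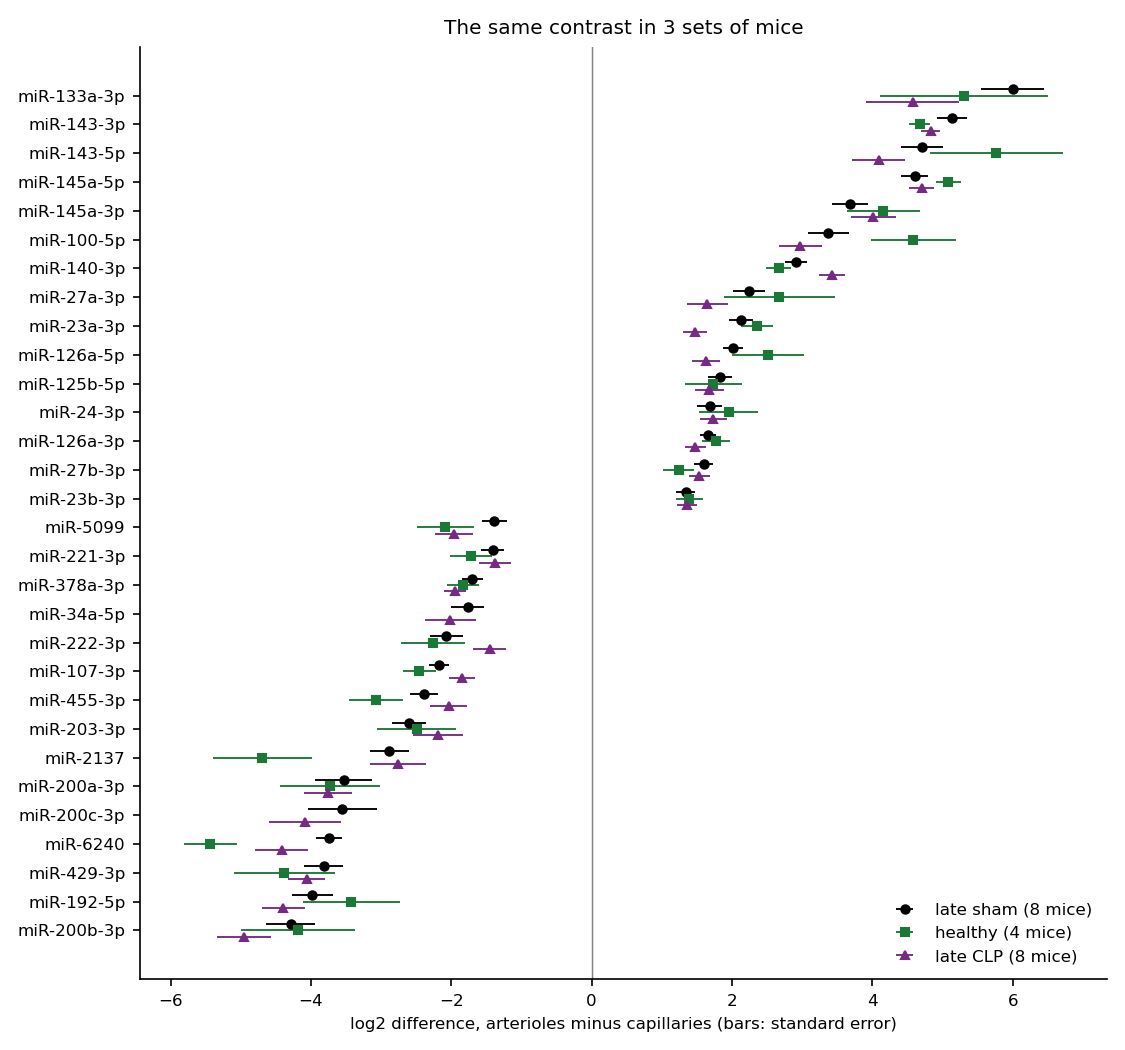
The log2 difference, arterioles minus capillaries, with its standard error for 30 miRNAs in late sham (black), healthy (green) and late CLP (purple) mice; miR-34a-5p and miR-200c-3p were not tested in healthy mice. Every estimate shown has the sign it has in late sham mice, and miR-6240 is at -3.74 in late sham and -5.43 in healthy mice.

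The glomeruli and post-capillary venules of the same 8 mice place the contrast. Against the mean of these, 34.6% of 289 tested miRNAs differed in arterioles and 43.6% in peritubular capillaries, in either direction. For this comparison the TMM scaling was made over arterioles, capillaries, glomeruli and venules together. Scaled CPM here and in the next paragraph therefore differ from those given above for the same libraries. miR-143-3p, the leading smooth muscle miRNA, ranged from 478857 to 1069530.0 (median 723766) scaled CPM in arterioles and from 43673 to 98234 (median 63014) in glomeruli. In venules it ranged from 22571 to 61941 (median 36946) and in capillaries from 12927 to 24958 (median 17819.8). The arterioles stood 3.90 ± 0.15 above the mean of glomeruli and venules (adjusted p = 3.59e-18), and the capillaries at -1.35 ± 0.17 (adjusted p = 2.07e-07). miR-126a-3p ranged from 32759 to 45739.8 (median 38867) in glomeruli and from 35291 to 60516 (median 43872) in arterioles, which overlap. miR-23b-3p was highest in glomeruli, 71149 to 106041 (median 90672), and the arterioles did not differ detectably from the mean of glomeruli and venules, at -0.03 ± 0.08 (adjusted p = 0.836), while the capillaries lay at -1.47 ± 0.09.

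On the other side, miR-192-5p ranged from 1472 to 5706 (median 3622) scaled CPM in venules and from 4104 to 6616 (median 5042) in capillaries, which overlap, against 519.6 to 1587 (median 1184) in glomeruli and 83.6 to 639 (median 427) in arterioles. On the log2 scale, relative to the mean of glomeruli and venules, the arterioles were at -2.32 ± 0.29 and the capillaries at 1.51 ± 0.24. miR-200b-3p had the same order of medians. For miR-107-3p the differences from that mean were 1.38 ± 0.13 in capillaries (adjusted p = 1.06e-09) and -0.67 ± 0.14 in arterioles (adjusted p = 0.000262). For miR-6240 the arterioles were at 0.21 ± 0.70 (adjusted p = 0.849) and the capillaries at 3.85 ± 0.73 (adjusted p = 0.000143), with 1 venule library at 331286 scaled CPM against a venule median of 499.9.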

How the data were processed

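Small RNA was sequenced from microdissected arterioles and peritubular capillaries of 8 late sham mice, with a RealSeq library kit per the labels' protocols. The authors deposited raw counts, whole numbers per mature miRNA and library, with no normalization. FastQC 0.11.9, MultiQC 1.10, cutadapt 3.3, Bowtie 1.3.0 and the builds GRCm38.p6 and GRCm39 are named, per the submitters' processing notes. The sources used here name no counting tool and do not say how a read with several matches was treated, so near-identical miRNAs are uncertain.

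The 10 # entries were left out of library sizes, and 0 columns were unmatched. The contrast was fitted with edgeR 4.0.16 (R 4.3.3): TMM, filterByExpr (minimum count 10, minimum total 15), quasi-likelihood F test, mouse as a block, Benjamini-Hochberg threshold 0.05, two-sided. The 8 pairs come from the same animals, by the mouse number in the labels, and the paired libraries' deviations correlated at -0.115 to 0.209. The filter needed 84.8 CPM in 8 libraries: 103 of the tested met it in every library of both vessels (39 higher, 23 lower), 21 in every arteriole library but not in every capillary one (14 higher, 0 lower), and 23 the reverse (0 higher, 14 lower). Passing the filter through 1 vessel favours a difference toward that vessel, so the counts of these 2 classes support nothing. Late sham and late CLP mice share no library, and each interaction is 1 fit over both sets. Ratios within pairs used counts plus 0.5. The fits were checked on simulated data.

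Named are the 15 higher and 15 lower miRNAs with the smallest p, list members, the 5 most abundant of each vessel, 5 per interaction, and the 3 most abundant of those with 0 counts in the other vessel. The miRNAs and lists were chosen with earlier results of these data known, and the 1-base pairs after their values were seen. Alternatives were other scalings, DESeq2 1.42.0, limma 3.58.1, other filters, thinning, no block, and leaving out mice. Sequences and positions are from RefSeq and host genes from GENCODE, both on GRCm38.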

Additional observations from a re-analysis of the deposited data

Results flagged for a closer look

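Of 33 named miRNAs, 4 had a mouse that stood apart from the other 7 in its log2 ratio of arterioles over capillaries, and chance marks about 1 in 20 such groups. miR-143-5p reached 7.25 in 72 h mouse 1, where the median of the 8 mice was 4.73. miR-145a-5p reached 5.86 in 72 h mouse 4, where the median was 4.52. miR-222-3p fell to -3.73 in 72 h mouse 1 (median -2.01) and miR-34a-5p to -2.99 in 24 h mouse 2 (median -1.79). In each case the mouse lay farther out in the direction the other mice shared.

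miR-6240 differed between sets of mice: the contrast was 1.62 higher (less negative) in late sham than in healthy mice on the log2 scale, by edgeR's test of the difference (adjusted p = 0.0409).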

How the results depend on the processing

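The 15 higher and 15 lower miRNAs with the smallest p in their direction kept direction and call in 706 values under alternatives. The exceptions were miR-221-3p (0.35), miR-5099 (0.36) and miR-378a-3p (0.053), reversed with the # entries, and 4 weaker ones: miR-107-3p (-0.42), miR-222-3p (-0.32) and miR-34a-5p (-0.022) with the # entries and miR-23b-3p (0.079) with plain totals. The counts of 56 higher and 39 lower became 18 and 101 with plain totals, 140 and 10 with the # entries, 33 and 26 in 72 h mice alone, and 44 and 25 in 24 h mice alone. Without the replicate block, fitting the paired libraries as separate samples, they were 50 and 47. With DESeq2 they were 61 and 57, with limma voom 59 and 52, with arterioles thinned to capillary depth 42 and 39 of 129. Leaving out each mouse gave 51 to 57 higher and 34 to 40 lower. No filter gave 78 higher in late CLP mice instead of 50. The single healthy-against-sham call became 0 without the block or with thinning, and 0 to 1 leaving out each mouse. The absence of CLP-against-sham calls became 1 without the filter, 2 with DESeq2, and 0 to 1 leaving out each mouse (1 without sham 24 h mouse 4). The cause of these changes was not tested. Leaving out mice with a library under 10000 miRNA counts was planned for late sham mice alone and not run, since none had one; the healthy capillary libraries went down to 4215.

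Capillary depth limits the low miRNAs: a capillary count of 0 allows 60.7 to 110 plain CPM, which are not scaled CPM.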

Other observations

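Some called miRNAs belong to none of the lists and were chosen for mention after their values were seen. On the capillary side miR-874-3p had a log2 difference of -3.46 ± 0.63 (edgeR adjusted p = 0.000247), with 25.8 to 247 (median 62.4) scaled CPM in arterioles and 138 to 1923 (median 1254) in capillaries, and was called in all 5 scalings. miR-190a-5p had -3.21 ± 0.67 without overlap of the groups. Both arms of miR-187 were lower, miR-187-5p at -4.20 ± 1.18 and miR-187-3p at -3.14 ± 1.02, each called in 4 of 5 scalings. Their log2 ratios by mouse crossed 0, from -8.40 to 0.94 for miR-187-5p and from -7.83 to 2.73 for miR-187-3p. On the arteriole side miR-3102-3p had 4.25 ± 0.82 and miR-708-5p 4.69 ± 1.41, both called in all 5 scalings. miR-708-5p had no count in 6 of 8 capillary libraries and 51 counts in another, 24 h mouse 1. miR-676-3p and miR-330-3p, at 2.37 ± 0.70 and 1.63 ± 0.53, had groups that did not overlap. In capillaries miR-3102-3p, miR-708-5p and miR-676-3p did not reach the filter's 84.8 CPM in every library. The same held in arterioles for miR-874-3p, miR-190a-5p and both arms of miR-187. Each thus needed libraries of the vessel where it was higher to pass, which favours the direction given.

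With counts in either vessel, 163 miRNAs had 0 counts in all 8 capillary libraries and 56 in all 8 arteriole libraries, and none of them passed the filter. The most abundant of the first kind were miR-483-5p with 231 arteriole counts in 8 of 8 libraries, miR-483-3p with 149 in 7 and miR-8114 with 147 in 8. miR-483 lies in an intron of Igf2, a growth factor gene. A count of 0 over 299109 capillary miRNA counts allows up to 10.03 plain CPM. Of the second kind, miR-3470a had 27 capillary counts in 4 libraries, miR-7063-5p 26 in 1 and miR-3473h-5p 21 in 2, so the last 2 rest on few libraries.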
